A study of Mus musculus with 15 samples.

Results

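The chemokine Cxcl12 and its receptors Cxcr4 and Ackr3 (older name Cxcr7) were followed in mouse mammary tumour spheres treated with the inhibitors PHA and ICG, alone or together. Every probe set that the array annotation assigns to 1 of these genes alone was taken. This gave 3 genes with 5 probe sets, out of 18193 genes and 45037 probe sets tested. Cxcl12 has 3 probe sets (1448823_at, 1439084_at and 1417574_at), Cxcr4 has 1448710_at and Ackr3 has 1417625_s_at.

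Primary mammary tumours from mice of the strain FVB/N and the genotype WAPCre-DNbcatn;HGF were dissociated, and their cells were kept for 7 days as mammospheres, floating spheres that grow without attachment, and then treated for 24 h. Biotinylated RNA made from 250 ng of total RNA was hybridised to Affymetrix arrays. The 15 arrays form 5 groups of 3 and, by the code in their titles, 2 sets. The first set holds DMSO (the solvent alone), PHA and ICG; the second set holds its own DMSO arrays and PHA+ICG. All groups carry the same genotype, so the labels give no group without the transgenes. WAPCre is a Cre recombinase under the whey acidic protein promoter, which is active in milk-producing cells, so the alleles it switches are acted on in those cells, and other cells of the tumour can be present in the spheres. No age, dose or pooling of animals is given in the labels. From general knowledge of the names, PHA inhibits the kinase of MET, the receptor of HGF, and ICG hinders transcription driven by β-catenin.

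CXCL12 is secreted mainly by fibroblasts and other stromal cells. It binds CXCR4, a receptor that couples to inhibitory G proteins and draws leukocytes, stem cells and many tumour cells along a gradient of the ligand. ACKR3 binds the same ligand but passes its signal through arrestins rather than G proteins, and by taking up CXCL12 it lowers the amount available to CXCR4. In the mammary gland the ligand is best known from stroma, Cxcr4 from leukocytes and tumour cells, and Ackr3 from endothelium and some epithelial and mesenchymal cells.

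The promoter sequences of the 3 genes are shown because the compounds act on pathways that end in transcription. Whether these stretches have a part in the responses of ligand and receptors was not tested, and DNA outside them was not read. Each line gives the 250 bases before the start of the RefSeq gene model (build GRCm38.p6) on the gene's own strand, 5′ to 3′. Capitals mark matches to a TCF/LEF motif (AACAAAG, with ATCAAAG or TACAAAG or TTCAAAG as variants), a GC box (GGGCGG) and a hypoxia response element core (ACGTG or GCGTG), each on either strand, and to a TATA box (TATAAA) on the gene strand. The motifs were chosen after the sequences were seen. The Cxcl12 stretch is chr6:117168285-117168534 (+), that of Cxcr4 is chr1:128592300-128592549 (-) and that of Ackr3 is chr1:90203730-90203979 (+).
Cxcl12: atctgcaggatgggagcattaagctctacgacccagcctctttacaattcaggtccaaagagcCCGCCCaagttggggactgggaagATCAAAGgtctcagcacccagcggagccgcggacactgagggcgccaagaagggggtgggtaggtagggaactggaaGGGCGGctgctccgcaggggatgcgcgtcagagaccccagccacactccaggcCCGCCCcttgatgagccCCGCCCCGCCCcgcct
Cxcr4: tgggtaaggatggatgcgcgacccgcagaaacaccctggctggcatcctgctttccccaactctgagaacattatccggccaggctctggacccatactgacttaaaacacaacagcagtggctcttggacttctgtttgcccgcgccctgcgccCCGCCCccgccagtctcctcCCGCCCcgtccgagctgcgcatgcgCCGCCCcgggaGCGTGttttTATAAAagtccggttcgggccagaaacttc
Ackr3: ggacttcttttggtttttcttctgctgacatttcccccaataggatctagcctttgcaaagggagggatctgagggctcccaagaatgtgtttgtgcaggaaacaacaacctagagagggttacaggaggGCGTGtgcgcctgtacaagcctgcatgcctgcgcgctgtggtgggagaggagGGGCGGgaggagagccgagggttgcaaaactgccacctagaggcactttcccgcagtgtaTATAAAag

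Of the 3 stretches, that of Cxcl12 holds the TCF/LEF letters, 163 bases before the start, with 5 GC boxes of which the last 2 overlap by 1 base. The Cxcr4 stretch holds 3 GC boxes, a GCGTG at 39 bases and a TATAAA at 30 bases. The Ackr3 stretch holds a GCGTG at 120 bases, a GC box at 68 bases and a TATAAA at 8 bases. The content of G and C was 64.4% for Cxcl12, 61.2% for Cxcr4 and 54% for Ackr3. Among 32851 promoters of the same length, 14.8% hold a TCF/LEF match, 32.7% a GC box, 38.6% a hypoxia response element core and 7.59% a TATA box. These are matches of letters, and no binding was measured.

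Before the values, the standing of the arrays is given. Replicate arrays of the first set agreed closely, and the median SD of a probe set was 0.11 (DMSO), 0.097 (PHA) and 0.104 (ICG) on the log2 scale, against 0.18 (DMSO) and 0.233 (PHA+ICG) in the second set. In the second set the arrays with replicate number 1 stood apart in leukocyte genes, and not in these alone. By replicate number, luminal epithelial markers had mean log2 signals of 8.41, 7.72 and 7.71 in DMSO and 7.80, 6.80 and 6.71 in PHA+ICG. Basal markers differed less, with means of 7.45, 7.49 and 7.50 in DMSO and 7.39, 7.21 and 7.06 in PHA+ICG. Ptprc, the CD45 marker of leukocytes, had log2 signals of 10.04, 6.79 and 6.64 in the DMSO arrays and 9.20, 5.54 and 6.20 in the PHA+ICG arrays, in the order of the replicate numbers. In the first set Ptprc lay between 10.71 and 11.002. Each treatment was therefore compared with the DMSO arrays of its own set, and each set was fitted alone with limma. A change is called when its Benjamini-Hochberg adjusted p over all 45037 probe sets is under 0.05, and all changes are on the log2 scale. The labels do not say that replicates are separate cultures or animals, so the p-values speak of the scatter among arrays, part or all of which may be technical, and 3 arrays a group limit the precision.

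**Figure D1:**
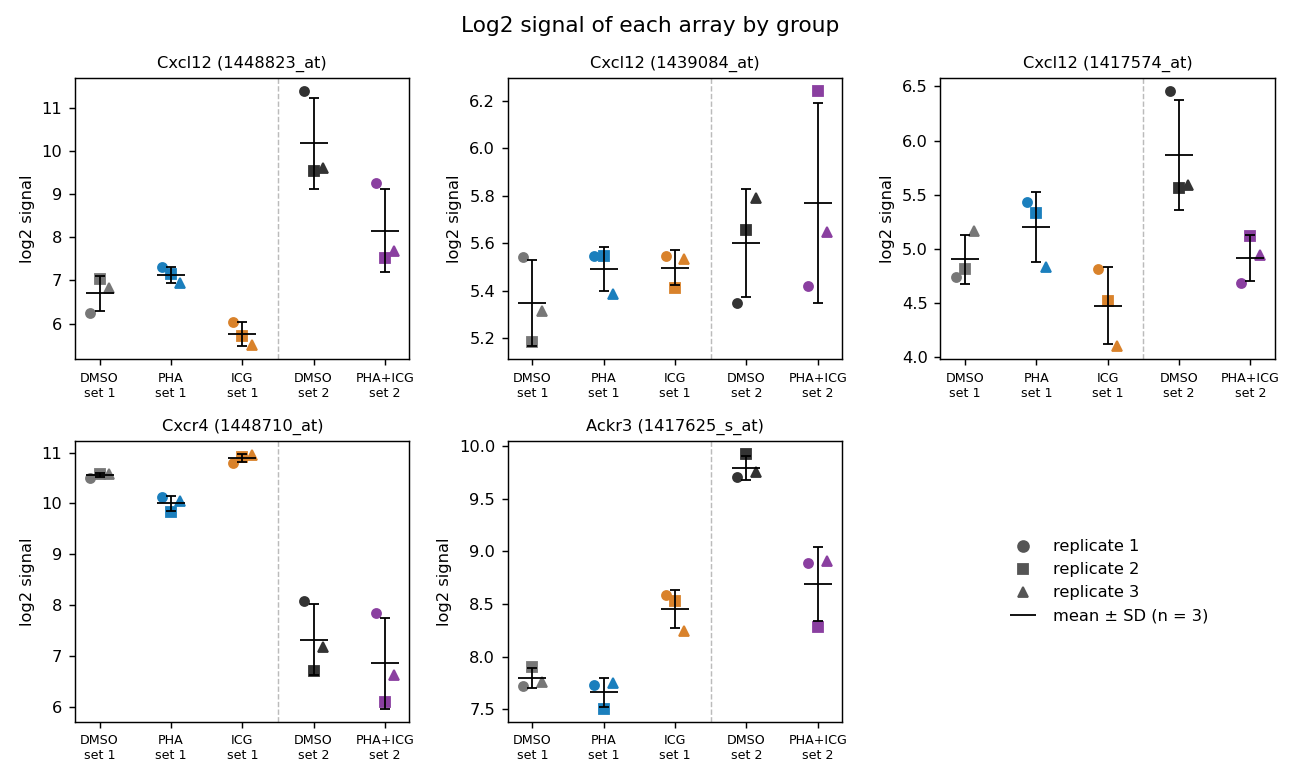
Log2 signal (vertical axes) of each array for the 5 probe sets, by group along the horizontal axes; symbols give the replicate number, bars the mean ± SD of 3 arrays, and the dashed line parts the sets. Cxcl12 1448823_at sits higher and Cxcr4 lower in all arrays of the second set than in the first; for Ackr3 the second set's means are higher, but a PHA+ICG array at 8.28 overlaps the ICG arrays, and within each set the treated arrays part from DMSO as given in the text.

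In the first set, Cxcr4 fell under PHA, while under ICG the ligand Cxcl12 fell and both receptors rose. The Cxcl12 probe set 1448823_at, the brightest of its 3, had log2 signals of 6.24, 7.04 and 6.82 in DMSO, 7.30, 7.16 and 6.93 in PHA and 6.04, 5.71 and 5.49 in ICG. The 3 ICG arrays lay below every DMSO array, while 2 PHA arrays lay above every DMSO array and PHA replicate 3 lay within the DMSO range. Under ICG it fell by 0.95 ± 0.20 (SE), 1.93-fold lower, with an adjusted p of 0.00861 in limma. The ICG values are low, near the medians of the ICG arrays (5.745 to 5.752), and ICG replicates 2 and 3 lie under a log2 signal of 6. Under PHA the log2 difference was 0.43 ± 0.20 with a 95% interval from -0.01 to 0.87 and an adjusted p of 0.275 in limma.

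The other Cxcl12 probe sets are dim. Probe set 1417574_at had log2 signals of 4.74, 4.81 and 5.16 in DMSO, 5.43, 5.33 and 4.84 in PHA and 4.81, 4.52 and 4.10 in ICG. Its groups overlapped with DMSO in both comparisons, and its log2 differences of 0.30 ± 0.20 (PHA, adjusted p = 0.464) and -0.43 ± 0.20 (ICG, adjusted p = 0.185) did not pass limma's test. Probe set 1439084_at stayed between 5.18 and 5.54 over the 9 arrays and its log2 differences were 0.15 ± 0.10 for each inhibitor, with adjusted p of 0.469 (PHA) and 0.356 (ICG) in limma. The 3 probe sets of the ligand thus do not agree, and only 1448823_at, Cxcr4 and Ackr3 reached a log2 signal of 6 in at least 3 arrays of each set.

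Cxcr4, the G protein-coupled receptor, had log2 signals of 10.51, 10.57 and 10.58 in DMSO, 10.12, 9.84 and 10.05 in PHA and 10.80, 10.91 and 10.96 in ICG. The PHA arrays lay below and the ICG arrays above all DMSO arrays. Under PHA it fell by 0.55 ± 0.09, 1.46-fold lower, with an adjusted p of 0.00564 in limma. Under ICG it rose by 0.34 ± 0.09, 1.27-fold higher, with an adjusted p of 0.0217 in limma. The log2 difference under ICG stayed between 0.306 and 0.386 whichever of the 6 arrays was left out, but with 1 array fewer the adjusted p was above 0.05 in 5 of the 6 cases: it was 0.0559, 0.0543 and 0.0527 without DMSO replicate 1, 2 or 3, and 0.0655 and 0.077 without ICG replicate 2 or 3. The fall under PHA was called without any 1 of the 6 arrays (adjusted p from 0.0108 to 0.0263).

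Ackr3, the arrestin-coupled receptor, had log2 signals of 7.72, 7.90 and 7.76 in DMSO, 7.73, 7.50 and 7.75 in PHA and 8.58, 8.52 and 8.24 in ICG. All ICG arrays lay above all DMSO arrays, and the PHA arrays overlapped DMSO. Under ICG it rose by 0.65 ± 0.11, 1.57-fold higher, with an adjusted p of 0.00209 in limma, and this call held under every alternative run. Under PHA the log2 difference was -0.13 ± 0.11, with a 95% interval from -0.37 to 0.10 and an adjusted p of 0.546.

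In counts, PHA changed 1 of the 5 probe sets, with 4.73% of all probe sets called in that comparison, and 1 of 5 had groups that did not overlap, against 25.2% of all. ICG changed 3 of 5, against 16.5% called over the array, and the same number did not overlap with DMSO, against 32.9%. The second set spreads more in these genes: the SD of Cxcr4 was 0.04 in the first DMSO group and 0.70 in the second. When the 15 arrays shared 1 estimate of the spread, the adjusted p became 0.864 (Cxcr4 under PHA), 0.753 (Cxcr4 under ICG) and 0.351 (Cxcl12 under ICG), and with array weights by set the Cxcr4 values were 0.101 and 0.228.

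The inhibitors were also compared with each other, since both lie in the first set. Cxcl12 was higher and both receptors were lower in PHA than in ICG. The log2 difference, PHA minus ICG, was 1.38 ± 0.20 for Cxcl12 1448823_at (2.60-fold, adjusted p = 0.000914) and 0.72 ± 0.20 for 1417574_at (adjusted p = 0.0297). For Cxcr4 it was -0.89 ± 0.09 (adjusted p = 8.813e-05) and for Ackr3 -0.79 ± 0.11 (adjusted p = 0.000627), all by limma. These 4 of 5 probe sets did not overlap between the inhibitors, against 33.7% of all probe sets, and 17.3% of all were called. Of these, 1417574_at is dim. Its mean in ICG was 4.48, and ICG replicate 3, at 4.10, lay below the lower quartile of its array (4.292), so it was not shown to be above background there. For 1439084_at the log2 difference was 0.00 ± 0.10, with a 95% interval from -0.22 to 0.21. The call of 1417574_at was lost without PHA replicate 1 (adjusted p = 0.111) or 2 (0.1), without ICG replicate 2 (0.0688) or 3 (0.106), and with 1 spread over 15 arrays (0.115). That last setting also ended the calls of 1448823_at (0.112) and Cxcr4 (0.2).

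**Figure D2:**
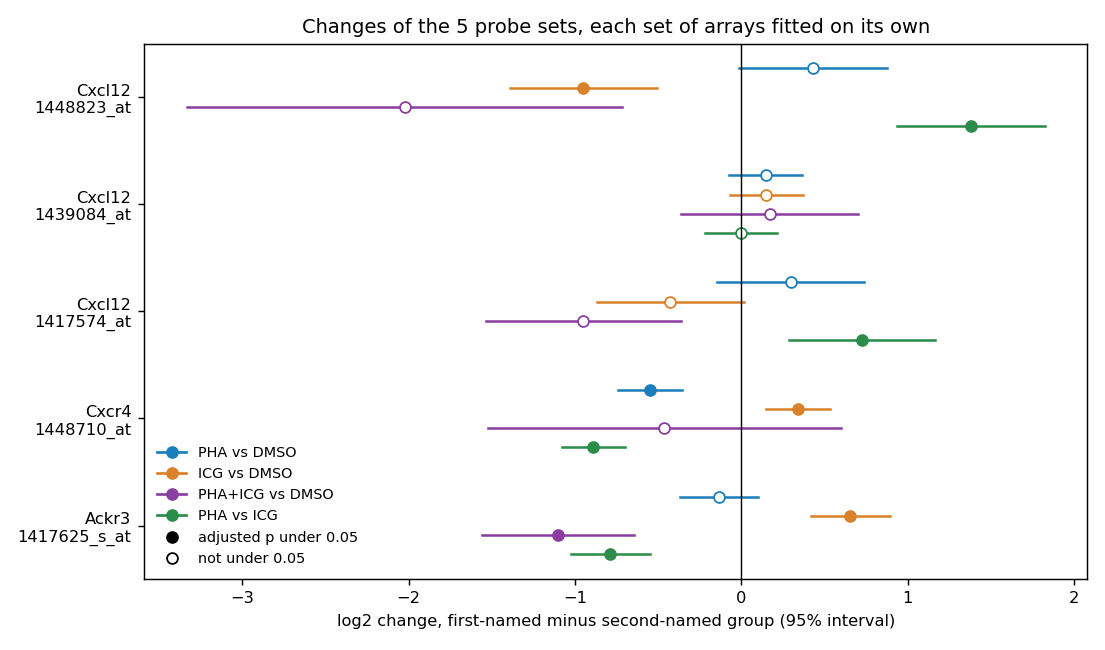
Log2 change (horizontal axis) of each probe set (vertical axis) for 4 comparisons, with 95% intervals from limma; filled points have an adjusted p under 0.05. Under ICG Cxcl12 1448823_at lies at -0.95 and the receptors at 0.34 and 0.65, whereas under PHA Cxcr4 alone is filled, at -0.55.

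With both inhibitors together, the ligand and Ackr3 were lower than in the DMSO arrays of the same set. Cxcl12 1448823_at had log2 signals of 11.39, 9.54 and 9.60 in DMSO and 9.26, 7.52 and 7.68 in PHA+ICG, in the order of the replicate numbers. Replicate 1 was about as far above the other two in both groups, so that the groups were wide, and still the PHA+ICG arrays lay below all DMSO arrays. The log2 difference was -2.02 ± 0.58, 4.07-fold lower, and did not pass the test without pairing (adjusted p = 0.169 in limma). In the second set arrays with the same number deviated together over all probe sets, with correlations of 0.6, 0.35 and 0.25. They were treated as pairs in an alternative fit with a replicate block, and not in the main fit. The labels do not pair them. The pairing was drawn from these same values, and every p-value with the block rests on that choice. The numbers 2 and 3 are not singled out by these values: DMSO replicate 3 with PHA+ICG replicate 2 gave 0.32 and DMSO replicate 2 with PHA+ICG replicate 3 gave 0.2, while correlations between number 1 and the others lay from -0.48 to -0.28. Within pairs the log2 differences were -2.13, -2.02 and -1.92 (SD 0.11, n = 3), and with the replicate block the adjusted p was 5.042e-05. Without the pair numbered 1, a setting chosen after seeing the data, the log2 difference was -1.97 and the adjusted p without a block was 0.000777.

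The dim Cxcl12 probe set 1417574_at had log2 signals of 6.46, 5.56 and 5.59 in DMSO and 4.69, 5.12 and 4.95 in PHA+ICG, without overlap. Its log2 difference was -0.95 ± 0.26, with an adjusted p of 0.147 without and 0.035 with the replicate block. Its pairs ranged from -1.77 to -0.44, so that the pair numbered 1 differed most, and without that pair the log2 difference was -0.54 with an adjusted p of 0.19. For 1439084_at the values were 5.35, 5.66 and 5.79 in DMSO and 5.42, 6.24 and 5.65 in PHA+ICG, and the log2 difference was 0.17 ± 0.23 (adjusted p = 0.924 in limma).

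Ackr3 had log2 signals of 9.71, 9.93 and 9.75 in DMSO and 8.88, 8.28 and 8.91 in PHA+ICG, and every treated array lay below every DMSO array. It fell by 1.10 ± 0.20, 2.15-fold lower, with an adjusted p of 0.0418 in limma and 0.00575 with the replicate block. Without the block this call was lost when DMSO replicate 1, 2 or 3 was left out (adjusted p = 0.0661, 0.193 and 0.169), when PHA+ICG replicate 2 or 3 was left out (0.0596 and 0.108), and with median centring (0.0795). Without the pair numbered 1 the log2 difference was -1.24 and the adjusted p 0.0205.

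Cxcr4 had log2 signals of 8.08, 6.71 and 7.17 in DMSO and 7.84, 6.10 and 6.63 in PHA+ICG, and the groups overlapped. Its log2 difference was -0.46 ± 0.47, with an adjusted p of 0.874 without and 0.133 with the replicate block, and the pairs gave -0.24, -0.61 and -0.54. Cxcr4 was thus lower in each treated array than in the DMSO array of the same number, but the test did not pass. Of the 5 probe sets, 1 was called in this comparison without the block, against 1.25% of all, and 3 with it, against 5.95%. The values of 3 probe sets, those of Ackr3 and the 2 Cxcl12 probe sets named, did not overlap, against 15.9% of all. Over the array 132 probe sets were called higher and 431 lower, a split that became 198 and 363 after quantile normalization.

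**Figure D3:**
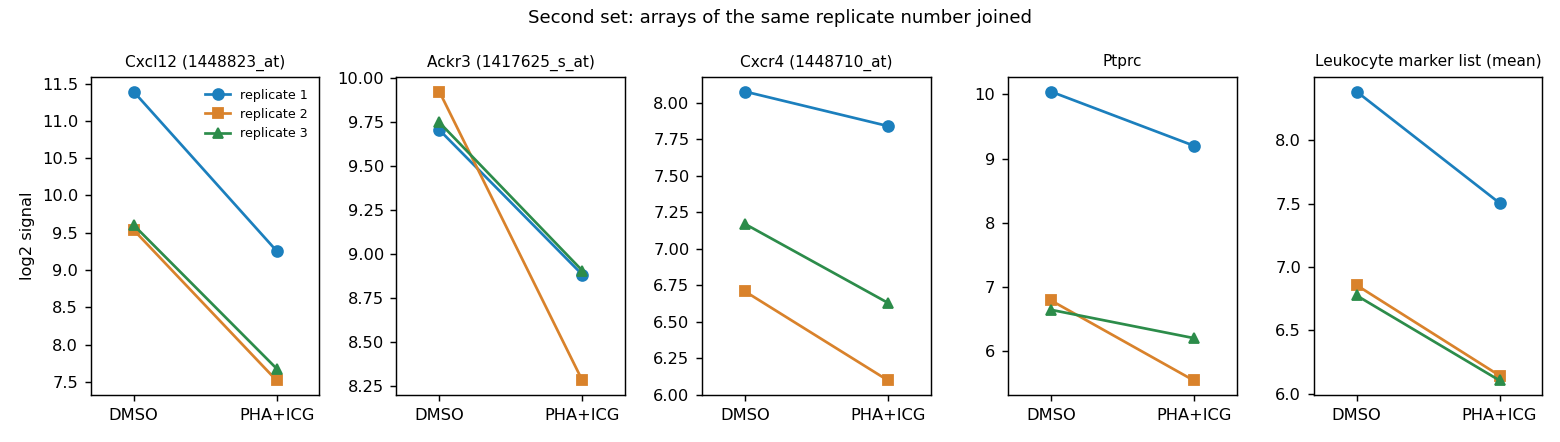
Log2 signal (vertical axes) of the second set's arrays in DMSO and PHA+ICG (horizontal axes), with lines joining arrays of the same replicate number, for Cxcl12, Ackr3, Cxcr4, Ptprc and the mean of the leukocyte list. Replicate 1 lies highest for Cxcl12, Cxcr4 and the leukocyte genes in both groups, and the 3 Cxcl12 lines fall in parallel, with differences of -2.13, -2.02 and -1.92.

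Whether the combination acted otherwise than a single inhibitor was tested on the difference between effects, each taken within its own set, with array weights by set. Ackr3 changed in opposite directions: its effect under PHA+ICG was lower than that under ICG by a log2 difference of -1.76 ± 0.24 (adjusted p = 0.00484 in limma), while 0.289% of all probe sets were called. It also departed from the sum of both single effects, by -1.62 ± 0.29 (adjusted p = 0.0209), where 0.44% of all were called. Against the effect of PHA alone the Ackr3 difference was -0.97 ± 0.24 with an adjusted p of 0.0544, and 0.0451 with the replicate block. The set and the treatment cannot be told apart in these contrasts beyond what each set's own DMSO arrays remove. The call against ICG was lost without DMSO replicate 3 of the second set (adjusted p = 0.0515). The departure from the sum was lost without DMSO replicate 3 of the first set (0.0597), without DMSO replicate 2 or 3 of the second (0.094 and 0.0813), and with 1 spread over 15 arrays (0.0541).

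For Cxcl12 1448823_at the effect of PHA+ICG was lower than that of PHA by -2.45 ± 0.59 (adjusted p = 0.0434 in limma), where 1.88% of all probe sets were called. Leaving out any 1 of 12 arrays other than DMSO replicate 2 of the first set and PHA+ICG replicate 1 ended this call, with adjusted p between 0.0509 and 0.157, and 1 spread over 15 arrays gave 0.0591. Against ICG the Cxcl12 difference was -1.07 ± 0.59 (adjusted p = 0.9), with a 95% interval from -2.33 to 0.18, and against the sum it was -1.504 ± 0.70 (adjusted p = 0.623). For Cxcr4 the corresponding log2 differences were 0.09 ± 0.41 against PHA (adjusted p = 0.997), -0.80 ± 0.41 against ICG (0.844) and -0.25 ± 0.48 against the sum (0.955).

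The DMSO arrays of the sets differed more for these genes than any treatment changed them, which is given as a description only, because set, culture and normalization cannot be told apart. Cxcl12 1448823_at was 3.48 log2 units higher in the second set (11.1-fold) and Ackr3 2.00 higher (4.00-fold). For Cxcr4 the difference, second minus first, was -3.23 (9.40-fold lower). A difference at least as large in size was found for 0.302% of all probe sets (Cxcl12), 1.86% (Ackr3) and 0.397% (Cxcr4), and 7.66% of all differed at least 2-fold. Probe set 1417574_at was 0.96 higher and 1439084_at 0.25 higher. The DMSO groups overlapped for 1439084_at and not for the other 4 probe sets, and 39.6% of all probe sets did not overlap.

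**Figure D4:**
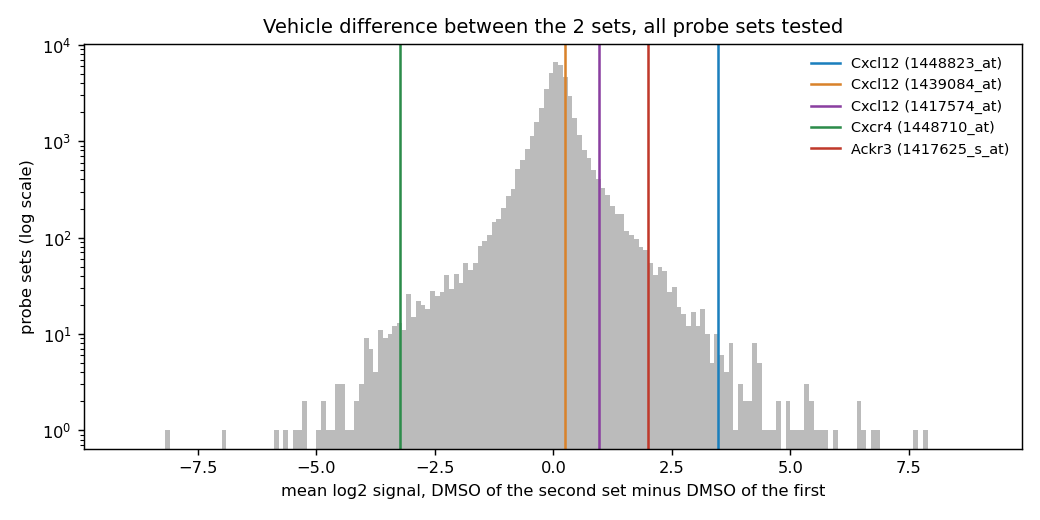
Number of probe sets (vertical axis, log scale) by the mean log2 signal of the second set's DMSO arrays minus that of the first (horizontal axis, bins of 0.1), with a vertical line for each of the 5 probe sets. Cxcl12 1448823_at at 3.48 and Cxcr4 at -3.23 lie in opposite tails.

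Ordered by level, Cxcl12 1448823_at rose from ICG (5.75 ± 0.28) through DMSO (6.70 ± 0.41) and PHA (7.13 ± 0.19) of the first set to PHA+ICG (8.15 ± 0.96) and DMSO (10.18 ± 1.05) of the second (mean log2 signal ± SD, n = 3). DMSO and PHA of the first set were neighbours that overlapped, and no test was made across the sets. Cxcr4 ran from PHA+ICG (6.86 ± 0.89) and DMSO of the second set (7.32 ± 0.70), which overlapped, to PHA (10.002 ± 0.15), DMSO (10.55 ± 0.04) and ICG (10.89 ± 0.08). Ackr3 ran from PHA (7.66 ± 0.14) and DMSO of the first set (7.80 ± 0.10), which overlapped, through ICG (8.45 ± 0.18) and PHA+ICG (8.69 ± 0.35), which overlapped, to DMSO of the second set (9.79 ± 0.12).

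Markers of the cells best known to make these genes moved as well. In bulk RNA fewer cells of a type and less RNA per cell cannot be told apart. Of 18 fibroblast markers, the cells best known for Cxcl12, 10 fell and none rose under PHA, and 14 fell and none rose under ICG, against 4.97% and 13% of all genes called lower and 6.69% and 22% called in either direction. After quantile normalization the PHA count was 7 lower and 1 higher. The PHA count was 5 without DMSO replicate 2 or 3 or PHA replicate 1 or 2, 6 without PHA replicate 3, and 4 with 1 spread over 15 arrays. Postn, a matrix protein, fell by 2.33 ± 0.36 under PHA and fell by 2.34 ± 0.36 under ICG, and Col1a1, a collagen chain, fell by 2.31 ± 0.27 under ICG (adjusted p = 0.00525, 0.0015 and 0.000266 in limma). Pdgfra, a fibroblast receptor, fell by 0.72 ± 0.09 under PHA and by 0.50 ± 0.09 under ICG, while Pdgfrb fell by 2.18 ± 0.20 under ICG and had a log2 difference of -0.54 ± 0.20 under PHA (adjusted p = 0.18). The list's median change was -0.65 under PHA and -1.17 under ICG, against 0.02 and 0.03 over all genes. So under ICG the ligand and the fibroblast list were both lower, and under PHA the list was lower while Cxcl12 1448823_at was 0.43 higher without passing its test. The part of these markers in the Cxcl12 values was not tested.

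Of the 19 leukocyte markers measured, 3 fell under PHA and 12 under ICG, and none rose. Over all genes 4.97% (PHA) and 13% (ICG) were called lower, and 6.69% and 22% in either direction. The PHA count of leukocyte markers was 5 with median centring and 6 without DMSO replicate 1. With 1 spread over 15 arrays the counts were 0 and 4. The complement gene C1qb fell by 2.75 ± 0.32 under ICG (adjusted p = 0.000261) and Coro1a, an actin regulator of leukocytes, by 0.62 ± 0.08 under PHA (adjusted p = 0.00256). The defining marker Ptprc had log2 differences of -0.16 ± 0.07 under PHA (adjusted p = 0.231) and -0.05 ± 0.07 under ICG (adjusted p = 0.666). The list's mean over its genes lay between 8.93 and 9.20 in DMSO, 8.76 and 8.80 in PHA and 8.24 and 8.45 in ICG, so under ICG Cxcr4 was higher where this list was lower. In the second set the list's mean was 8.39, 6.86 and 6.78 in DMSO and 7.51, 6.14 and 6.11 in PHA+ICG, by replicate number. Cxcr4 was highest in replicate 1, as this list was, and so were the luminal and adipocyte lists in both groups. The adipocyte list's mean was 7.42, 6.72 and 6.69 in DMSO and 6.97, 6.35 and 6.15 in PHA+ICG. In contrast, the mast cell list's mean in DMSO was 7.47, 7.69 and 7.76, lowest in replicate 1. The part of leukocyte genes in the Cxcr4 values was not tested.

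In the second set 3 of 18 fibroblast markers (Col1a1, Fap and Mfap5) fell under PHA+ICG and none of the 19 leukocyte markers was called, against 1.39% of all genes called lower and 1.82% in either direction. The fibroblast count was 1, 0 and 1 without DMSO replicate 2, DMSO replicate 3 or PHA+ICG replicate 3. At an unadjusted p under 0.05, 4 leukocyte markers passed, and with the replicate block 10 fibroblast and 11 leukocyte markers fell. Without the pair numbered 1 the counts were 8 and 6. Over the array 4976 of 45037 probe sets passed at that unadjusted p. With the block 5.95% of all probe sets were called, and without the pair numbered 1 the number was 1456. The median change was -0.70 for the fibroblast list and -0.84 for the leukocyte list, against 0.00 over all genes. The fibroblast list's mean lay between 11.32 and 11.49 in DMSO and 10.51 and 10.91 in PHA+ICG. Both lay above the 9.70 to 10.21 of the first set's DMSO arrays, as Cxcl12 1448823_at did. Other lists differed too between the DMSO groups. The luminal mean was higher in the second (7.71 to 8.41 against 6.98 to 7.13) and the leukocyte mean lower (6.78 to 8.39 against 8.93 to 9.20). By replicate number, the second DMSO group had fibroblast means of 11.49, 11.36 and 11.32. Cxcl12 1448823_at had 11.39, 9.54 and 9.60 there.

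Endothelial markers, known beside Ackr3, differed in level: on the log2 scale Pecam1 lay between 3.85 and 4.41 in all arrays, Cdh5 between 4.49 and 5.77 and Kdr between 6.13 and 7.46, against array medians from 5.73 to 5.93. Of 12 such markers 1 was called lower under PHA (Tek), but its mean log2 signals of 3.49 in PHA and 3.84 in DMSO lie below the lower quartile of every array (4.19 to 4.50), so it was not shown to be above background. None was called under ICG or PHA+ICG, where 1 each passed at an unadjusted p under 0.05 and with the block none was called under either. Over the array 13190 (ICG) and 4976 (PHA+ICG) of 45037 probe sets passed at that unadjusted p. With the block 5.95% of all were called under PHA+ICG. These shares also stand beside the PHA+ICG counts of the lists below. Of 10 pericyte and smooth muscle markers only Acta2 was called, lower under PHA and ICG. Over all genes 4.97% (PHA) and 13% (ICG) were called lower, so single calls among 12 and 10 markers do not set these lists apart. The PHA calls were lost without PHA replicate 1 or 2 (Tek) and without DMSO replicate 2 or 3 or PHA replicate 2 or 3 (the pericyte list); without DMSO replicate 1 the ICG counts were 1 endothelial and 2 pericyte markers. With the replicate block 2 pericyte markers fell under PHA+ICG, and 2 passed at an unadjusted p under 0.05 without it. Of 15 luminal markers 2 rose and 2 fell under each inhibitor, against 6.69% (PHA) and 22% (ICG) of all genes called, so that the ICG share is near that of all genes. Under ICG Epcam and Krt8 were lower, by 0.40 ± 0.08 and 0.34 ± 0.07, and Cldn4 and Cldn3 higher, by 0.48 ± 0.07 and 0.44 ± 0.07. Of 12 basal markers 3 keratins fell under PHA, of which Krt17 fell by 1.62 ± 0.13, and under ICG 2 rose and 1 fell, again near the share of all genes. The luminal PHA count was 2 without DMSO replicate 3 or PHA replicate 2, and the basal ICG count was 1 without DMSO replicate 2 or 3 or ICG replicate 1. Under PHA+ICG no epithelial marker was called without the block, 4 luminal and 5 basal markers passed at an unadjusted p under 0.05, and with the block 6 luminal markers fell, and 1 basal marker rose and 1 fell. Without the block, 2 luminal and 2 pericyte markers were called once DMSO replicate 1 was left out, and 3 luminal and 1 basal once PHA+ICG replicate 1 was left out.

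Mast cell and basophil markers fell in both single treatments, 8 of 10 under PHA and 7 of 10 under ICG. Beside the counts of this list and of the adipocyte list below, 6.69% (PHA), 22% (ICG) and 1.82% (PHA+ICG) of all genes were called. Those called lower were 4.97%, 13% and 1.39%. Fcer1a, a chain of the IgE receptor, had changes of -2.90 ± 0.14 under PHA and -1.18 ± 0.14 under ICG. Under PHA+ICG 2 of 10 mast cell and basophil markers fell (Mcpt8 and Cma1), and 4 with the block, where 5.95% of all probe sets were called. The 2 calls were lost without DMSO replicate 2 or 3 or PHA+ICG replicate 3. Of 6 adipocyte markers, 1 fell under PHA, 2 fell and 1 was called higher under ICG (Adipoq, at means of 3.77 and 3.46, also below every array's lower quartile), and 1 (Fabp4) fell under PHA+ICG; the ICG count was 1 without DMSO replicate 3 or ICG replicate 2, and the PHA+ICG count 0 without PHA+ICG replicate 3. Kit stands in both the luminal and the mast cell list.

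The genes around the ligand and receptors were read from lists of the pathway, whose counts stand against 6.69% of all genes called under PHA (4.97% lower) and 22% under ICG (13% lower). Of 14 other ligands, partners and ligand-cutting proteases measured, 1 rose and 1 fell under PHA, and 2 fell under ICG, a count of 1 without any array other than ICG replicate 3. The ICG count is no higher than the share of all genes. Sdc4, a heparan sulphate carrier that holds CXCL12, rose by 0.46 ± 0.07 under PHA (adjusted p = 0.00375) and fell by 0.22 ± 0.07 under ICG (adjusted p = 0.0454). Vcam1, an adhesion molecule, fell by 1.00 ± 0.12 under PHA, and Mmp2, a protease that cuts CXCL12, by 0.41 ± 0.09 under ICG.

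Of 16 G proteins, kinases, arrestins and damping factors at the receptors, 6 fell and 1 rose under PHA, and 5 fell and 2 rose under ICG, shares above those of all genes in both. The count called was 3 under PHA without DMSO replicate 2 or PHA replicate 1 or 2, and 4 under ICG without DMSO replicate 2 or ICG replicate 2 or 3. Rgs1, which damps G protein signals, moved as Cxcr4 did: it fell by 0.76 ± 0.10 under PHA (adjusted p = 0.00166) and rose by 0.32 ± 0.10 under ICG (adjusted p = 0.043). Arrb2, the arrestin used by both receptors, fell by 0.61 ± 0.09 under PHA, and Arrb1 by 0.46 ± 0.06 under ICG. Gnai1, an inhibitory G protein subunit, fell by 0.91 ± 0.10 under ICG (adjusted p = 0.000243).

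Of 22 downstream signal carriers, 3 fell under PHA, and 2 rose and 2 fell under ICG, where the share called was below that of all genes. Pik3r5, a regulatory subunit of the PI3 kinase that G proteins switch on, fell by 0.51 ± 0.08 under PHA and rose by 0.35 ± 0.08 under ICG. Rac2, a GTPase of leukocyte movement, fell by 0.48 ± 0.09 under ICG. Among 11 regulators with textbook links to these genes, 2 rose and 1 fell under PHA. Under ICG 3 rose and none fell, near the share of all genes. Egr1 rose by 1.02 ± 0.09 under PHA and 0.87 ± 0.09 under ICG, and Klf2 by 0.55 ± 0.09 and 0.84 ± 0.09. Ets1 fell by 0.74 ± 0.10 under PHA, and Rela rose by 0.47 ± 0.08 under ICG. No member of these 4 lists was called under PHA+ICG in limma without the block, where 2, 3, 3 and 2 of their members, in the order given, passed at an unadjusted p under 0.05. With the block 1, 3, 2 and 1 of them fell.

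Other chemokines of the stroma were read beside the ligand. Of 12, 4 fell under PHA and 3 under ICG, and none rose, against 4.97% and 13% of all genes called lower; under ICG the share called in either direction is near the 22% of all genes. The PHA count was 2 without DMSO replicate 2 or 3 or PHA replicate 3, and 1 without PHA replicate 1 or 2. Ccl11, an eosinophil attractant made by fibroblasts, fell by 1.20 ± 0.25 under PHA and fell by 1.81 ± 0.25 under ICG (adjusted p = 0.0231 and 0.00079 in limma). Ccl7, a monocyte attractant, fell by 0.72 ± 0.09 under PHA and 0.54 ± 0.09 under ICG. Both thus fell under PHA, where Cxcl12 1448823_at was not called. Under PHA+ICG none of the 12 was called by limma, 4 passed at an unadjusted p under 0.05, and 2 fell with the block. Over the array 4976 of 45037 probe sets passed at that unadjusted p, and 5.95% were called with the block.

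**Figure D5:**
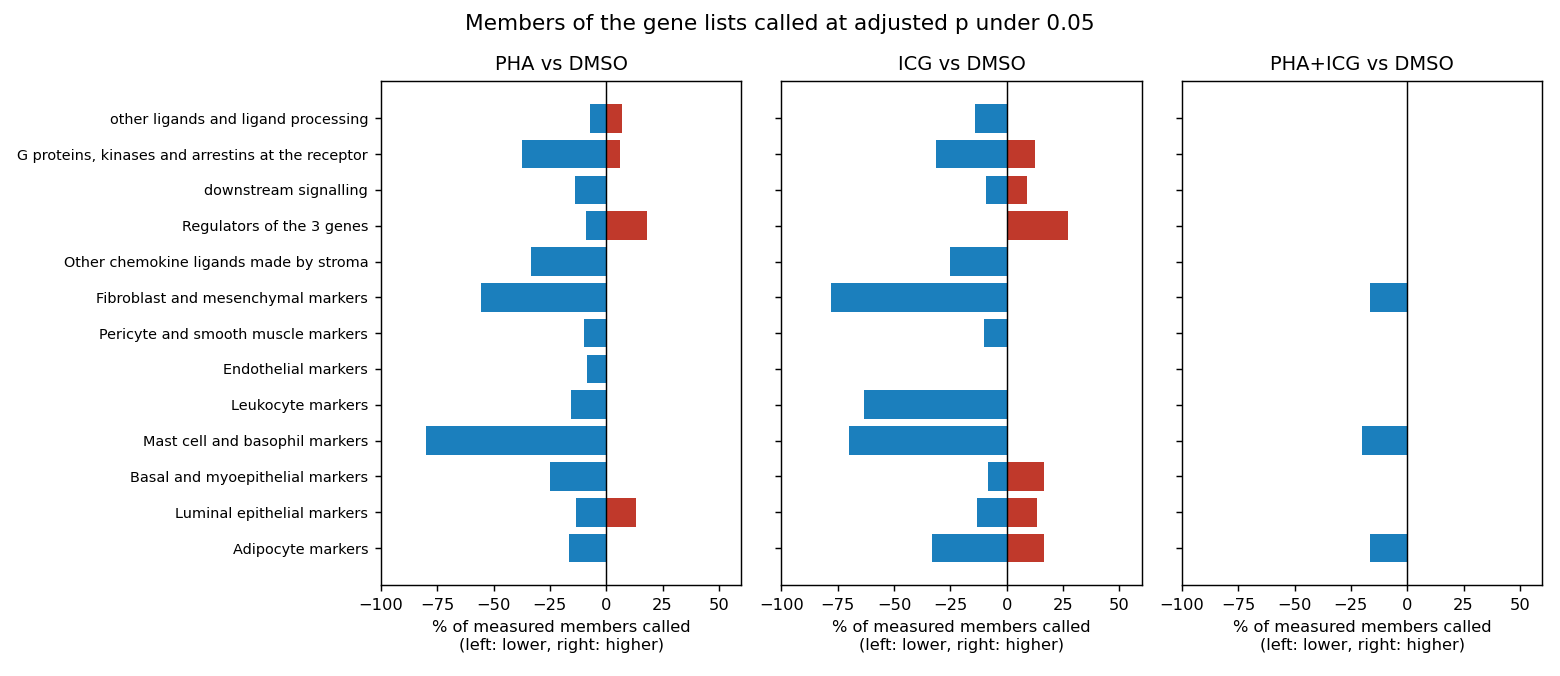
Share of each gene list's measured members called lower (left of 0, blue) or higher (right of 0, red) at an adjusted p under 0.05 (horizontal axes, percent) for each treatment against DMSO of its set, without the replicate block. Fibroblast and mast cell markers fell under each single inhibitor, leukocyte markers most under ICG, and few members were called under PHA+ICG.

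As readouts of the targeted pathways, Met fell by 0.35 ± 0.07 under PHA (adjusted p = 0.0256) and had a log2 difference of 0.42 ± 0.32 under PHA+ICG, of the opposite sign (adjusted p = 0.782). Axin2, a target of β-catenin, had a log2 difference of -0.17 ± 0.07 under ICG (adjusted p = 0.148) and 0.08 ± 0.15 under PHA+ICG (adjusted p = 0.946). Hgf was not called in any of the 3 treatments (adjusted p from 0.531 to 0.921). Egr1, given above among the regulators, was also taken as a readout. It rose by 1.02 ± 0.09 under PHA (adjusted p = 0.000189 in limma) and by 0.87 ± 0.09 under ICG (0.000113). Under PHA+ICG its log2 difference was 0.07 ± 0.20 (adjusted p = 0.968). These are RNA levels, and the activity of the MET kinase or of β-catenin was not measured.

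The genes whose pattern was most like each member were found over 10808 genes, from each array's deviation from the DMSO mean of its set. For Cxcl12, read from 1448823_at alone, they were Serinc5, Tbk1, Tgfbr2, Tubb2a and Prss23, with likeness (Pearson r over the 15 arrays) from 0.961 to 0.974. The r of 1448823_at with the other Cxcl12 probe sets was 0.84 (1417574_at) and -0.54 (1439084_at). Prss23 had log2 differences of 0.57 (PHA), -0.73 (ICG) and -1.77 (PHA+ICG). For Cxcr4 they were Chkb, Natd1, Mpp1, Rgs1 and Atp6v1b2, from 0.943 to 0.961. For Ackr3 they were Olr1, Cyb5r3, St6gal1, Parp9 and Gbp2, from 0.937 to 0.978. Olr1 had log2 differences of -0.07, 1.00 and -1.77 in the same order. The arrays share groups, sets and normalization, so these values are a description.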

How the data were processed

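The authors deposited 1 table of log2 values for 15 Affymetrix arrays; RMA and MAS5 are named in the submitters' processing notes without roles, and the values have the range of RMA. Whether the sets were normalized together is not given in the sources used here. Of 45101 probe sets 64 array controls were left out; 34945 of the rest carry 1 symbol in the platform annotation, 932 several and 9160 none. limma 3.58.1 (R 4.3.3) was fitted to the log2 values as deposited, without a filter, for each set alone, because the second spreads more; contrasts across sets used 15 arrays with weights of 1.76 and 0.428 by set. Adjusted p are Benjamini-Hochberg values. The fit within each set was run on simulated arrays with independent noise. That run held no replicate pairs and no contrast across sets, so it cannot speak for the block or for those contrasts. Python 3.11.15 drew the figures. A gene in a list is read from its probe set with the highest mean.

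Members and lists were chosen with earlier results of these data known. Named are the members, up to 4 called genes of each list with the largest changes, defining markers, pathway readouts and the 5 genes most like each member (mean log2 signal of at least 6). Replicate numbers were checked by correlating deviations of same-numbered arrays: from -0.24 to 0.18 in the first set, which gives no pairs, and 0.25 to 0.6 in the second. The latter were taken as pairs although the labels do not pair them, but the main fit has no replicate block. Alternatives were quantile normalization, median centring, 1 spread or weights over 15 arrays, the replicate block, a filter at a log2 value of 6 in 3 arrays, 1 probe set a gene, a prior that follows the mean, leaving out each array and, added after seeing the data, leaving out the pair numbered 1. Promoter sequences are RefSeq's, and all 3 genes matched by symbol. Protein sequences were not used here.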

Additional observations from a re-analysis of the deposited data

Results flagged for a closer look

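The effect of PHA+ICG on Cxcl12 1448823_at differed from that of PHA, each against DMSO of its own set, by a log2 difference of -2.454 (limma, adjusted p = 0.0434). All 3 PHA+ICG arrays lay below DMSO, while the PHA arrays overlapped it. For Ackr3 1417625_s_at the effect of PHA+ICG differed from that of ICG by -1.756 (adjusted p = 0.00484): Ackr3 was higher than DMSO in all 3 ICG arrays and lower in all 3 PHA+ICG arrays. Both contrasts compare treatments given in different sets.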

How the results depend on the processing

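Ackr3 under ICG was called under every alternative, and Cxcr4 under PHA without any 1 array. Against DMSO, calls were lost for Cxcr4 under PHA (change -0.55) and ICG (0.341) with 1 spread or weights over 15 arrays, for Cxcl12 under ICG (-0.95) with 1 spread, and for Ackr3 under PHA+ICG (-1.103) with median centring. With 1 spread, calls were also lost for PHA vs ICG (Cxcl12 1448823_at, 1417574_at and Cxcr4), for PHA+ICG minus PHA (Cxcl12 1448823_at) and for the departure from the sum (Ackr3), with the adjusted p given in the report, and the other lost calls came from leaving out 1 array. Cxcl12 under PHA+ICG (-2.024) gained a call with 1 spread (adjusted p = 0.011), with the replicate block, and (-1.97) without the pair numbered 1. Also gained were the call of 1417574_at under PHA+ICG with 1 spread (0.0222) and the block, and that of Ackr3 for PHA+ICG minus PHA with quantile normalization (0.0316), 1 spread (0.0283), the block, without PHA replicate 2 (0.0414), without PHA+ICG replicate 1 (0.046) and without the pair numbered 1 (0.0475). Without each array, Cxcr4 under ICG ranged from 0.306 to 0.386 and Ackr3 under PHA+ICG from -1.21 to -0.898. The settings differ in the values, the arrays or the spread they use, and the cause of these changes was not tested.

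Counts of called probe sets moved too. With 1 spread over 15 arrays they were 233 (PHA), 2013 (ICG), 2296 (PHA vs ICG), 3821 (PHA+ICG), 208 (PHA+ICG minus ICG) and 88 (departure from the sum), against 2132, 7451, 7803, 563, 130 and 198; with weights by set PHA+ICG gave 1219. With the replicate block they were 1196 (PHA), 2678 (PHA+ICG), 1582 (PHA+ICG minus PHA, 848 without), 327 and 362 for the last 2; the block changed no call of a member other than those given in the report. With the filter on dim probe sets PHA gave 3326, and with a prior that follows the mean 3340. With 1 probe set a gene, counts were 4896 (ICG), 4939 (PHA vs ICG) and 368 (PHA+ICG). Without the pair numbered 1 they were 1456 (PHA+ICG), 412 (PHA+ICG minus ICG) and 391 (departure). Without each array they ranged from 926 to 2092 (PHA; lowest without PHA replicate 2), 5130 to 7236 (ICG), 58 to 628 (PHA+ICG; lowest without DMSO replicate 3), 283 to 1127 (PHA+ICG minus PHA), 12 to 247 (PHA+ICG minus ICG) and 59 to 264 (departure).

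Directions that turned belonged to uncalled values. Without each array, Cxcl12 1439084_at ranged from -0.046 to 0.049 (PHA vs ICG), -0.066 to 0.344 (PHA+ICG), -0.211 to 0.199 (PHA+ICG minus PHA), -0.215 to 0.195 (minus ICG) and -0.361 to 0.05 (departure), and Cxcr4 from -0.406 to 0.467 (PHA+ICG minus PHA; -0.026 without the pair numbered 1) and -0.747 to 0.126 (departure).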
